A study of Mus musculus with 2 samples.

Results

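Interferon-stimulated genes are the genes that cells switch on after interferon binds its receptor. The 42 genes examined here are 8 sensors of nucleic acids or double-stranded RNA, 4 transcription factors and 30 effectors. They were chosen by their symbols from a table of 46095 genes. The rule used no measured value, but earlier results of these data were known when the genes were chosen. All 42 symbols were in the table. Both groups are C3H10 cells, and each is 1 library: MALAT1-knockdown cells took up an antisense oligonucleotide (ASO) against MALAT1, and control cells took up a negative control ASO. C3H10 (C3H/10T1/2) is a line of mouse mesenchymal precursors from the embryo that can turn into adipocytes, and the labels give its strain as C57BL/6. Both groups received 100 nM ASO with the RNAiMAX reagent, grew to confluence and were induced with isobutyl-1-methylxanthine, dexamethasone, troglitazone and insulin, followed by insulin alone. The study took RNA on the sixth day of differentiation. An ASO is a short DNA-like strand that pairs with an RNA and directs its cleavage. The sources used here do not name the MALAT1 ASO behind the sequenced library, and no library of cells without an ASO was analysed here, so a response to transfection that both libraries share cannot be seen in this comparison.

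Foreign RNA in the cytosol is bound by the helicases RIG-I and MDA5, and DNA by cGAS. These signal through the adaptors MAVS and STING to IRF3, which turns on the interferon genes. Secreted type I interferon binds IFNAR1 and IFNAR2, and the kinases JAK1 and TYK2 then activate STAT2, which joins IRF9 in the complex ISGF3. ISGF3 binds the interferon-stimulated response element in the promoters of the stimulated genes, whereas interferon-γ acts at the gamma-activated sequence. Fibroblasts and preadipocytes carry this pathway and keep a low level of its products without infection.

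The promoters of 5 members are shown because these members had the largest log2 ratios among those with at least 100 counts and a match to one of these motifs. The response element was searched as GAAA followed by 2 bases of any kind and GAAA again, and the gamma-activated sequence as TTCNNNGAA, on both strands, in the 250 bases before each gene start in the RefSeq table of GRCm38.p6. Capitals mark the matches, and each stretch runs 5′ to 3′ toward the gene start. Bases inside an annotated exon were left out. For Irgm1, where an annotated exon covers the window, only 30 bases around them are shown.
Rsad2: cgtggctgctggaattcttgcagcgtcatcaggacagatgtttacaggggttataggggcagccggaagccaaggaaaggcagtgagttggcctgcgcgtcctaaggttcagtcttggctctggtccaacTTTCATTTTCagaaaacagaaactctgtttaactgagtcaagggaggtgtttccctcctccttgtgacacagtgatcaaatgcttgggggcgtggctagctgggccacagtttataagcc
Oas1a: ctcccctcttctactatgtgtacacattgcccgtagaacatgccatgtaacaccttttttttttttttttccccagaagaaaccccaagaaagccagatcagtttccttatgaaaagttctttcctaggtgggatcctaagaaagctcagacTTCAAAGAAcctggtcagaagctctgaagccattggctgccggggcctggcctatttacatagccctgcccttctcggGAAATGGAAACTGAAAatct
Igtp: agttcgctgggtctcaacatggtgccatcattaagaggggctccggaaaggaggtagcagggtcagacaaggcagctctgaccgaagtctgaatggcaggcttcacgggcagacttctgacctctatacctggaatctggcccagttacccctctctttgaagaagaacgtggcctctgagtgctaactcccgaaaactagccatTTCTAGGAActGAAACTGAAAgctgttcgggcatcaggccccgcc
Irgm1: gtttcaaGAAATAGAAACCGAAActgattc
Ifit1: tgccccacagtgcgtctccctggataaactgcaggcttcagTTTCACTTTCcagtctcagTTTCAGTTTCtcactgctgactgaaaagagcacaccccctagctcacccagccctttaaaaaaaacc
The Rsad2 stretch is chr12:26456453-26456702 on the minus strand, with 1 match that begins 120 bases before the start. The Oas1a stretch is chr5:120907526-120907775 on the minus strand, with a match to the gamma-activated sequence 98 bases before the start. Its matches to the response element, which share bases, begin 20 and 14 bases before the start. The Igtp stretch is chr11:58199306-58199555 on the plus strand, with a match to the gamma-activated sequence 45 bases and one to the response element 34 bases before the start. The Irgm1 stretch is chr11:48871428-48871457 on the minus strand and holds matches 30 and 24 bases before the start. The Ifit1 stretch is chr19:34640744-34640870 on the plus strand, with matches 104 and 85 bases before the start. A match is a description of the letters, not a binding site.

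Of the 42 members, 32 had an entry in the promoter table. Dhx58, Mx1, Mx2, Oas2, Ifi27, Usp18, Parp9, Parp14, Rtp4 and Zbp1 had none. The response element letters were found for 12 of the 32 members, or 37.5%, compared with 3.46% of the 27025 genes in the table (2.98% of its 32851 promoters). The 12 members are Rsad2, Oas1a, Igtp, Irgm1, Ifit1, Ifit3, Isg15, Gbp2, Gbp3, Gbp7, Bst2 and Stat2. TTCNNNGAA was found for 9 of the 32 members, or 28.1%, compared with 8.13% of all genes (7.02% of the 32851 promoters).

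Total counts were 58147539 for control cells and 61653549 for MALAT1-knockdown cells. Malat1, the targeted RNA, was counted 170402 times in the former and 45396 times in the latter, a log2 ratio of -2.01, so 24.7% of its control level was left in the library labelled as its knockdown. A log2 ratio here is that of knockdown over control counts after scaling by edgeR's TMM factors, with 0.5 added to each count. Each interval is an exact Clopper-Pearson interval that covers counting error only. With 1 library per group no difference has a replicate check, no test between conditions was possible, and no p-value is given. "Higher" and "lower" therefore compare these libraries. Genes with at least 10 counts over both libraries entered the comparison and are called tested, although no significance test was made, which left 17356 genes and 40 of the 42 members.

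Most interferon-stimulated genes were modestly higher in MALAT1-knockdown cells. The median log2 ratio of the 40 members was 0.33, or 1.26-fold, with an interquartile range from 0.15 to 0.45, compared with a median of 0.00 and an interquartile range from -0.23 to 0.18 over all genes tested. The log2 ratio was above 0 for 35 of the 40 members (87.5%), against 49.6% of all genes tested. The interval lay above 0 for 33 members (82.5%), against 26.7% of all genes, and below 0 for 1 member, against 26.4%. At least 25% higher were 21 members (52.5%), against 15.8% of all genes. At least 1.5-fold higher were 7 members (17.5%), against 8.28% of all genes, and 0 members were at least 1.5-fold lower, against 11.9%. At least 2-fold higher were 2 members (5%), close to the 3.83% of all genes. Low counts widen the spread of the ratios. Of 12139 genes with at least 200 counts, 2.5% were at least 1.5-fold higher, 9.19% at least 25% higher, 0.247% at least 2-fold higher and 4.54% at least 1.5-fold lower. In the same set 51.4% of genes were above 0, 33.1% had intervals above 0 and 30.3% had intervals below 0. Of the members, 39 had that many counts, all but Trim25 of those tested, and the 7, 21 and 2 members were among them.

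Markers of other cell states also differed between the libraries. All 14 tested markers of mature adipocytes, of 15 listed, had log2 ratios below 0, and their summed level was 9232 CPM in control cells and 3926 CPM in knockdown cells, where CPM stands for counts scaled to 1000000 per library. In bulk RNA, fewer cells of a type and less RNA per cell cannot be told apart. Fibroblast and preadipocyte markers had a median log2 ratio of 0.22 over the 12 tested of 14, with summed levels of 20104 and 22156 CPM. Their ratios ran from -0.01 for Col3a1 to 1.73 for Cd34, which had 19 and 69 counts. Dlk1 had 0 counts in both libraries. All 8 genes of dividing cells had intervals above 0, with a median of 0.68 and summed levels of 776 and 1173 CPM. Of 13 leukocyte markers, 5 had 0 counts in both libraries, Ptprc, Adgre1, Itgam, Cd3e and Siglech, and the summed level of the list was 17.2 and 17.6 CPM. Most counts of the list came from Cd74 (444 and 397), Cd14 (362 and 536) and Cd68 (172 and 119). Of the 5 tested leukocyte markers, 3 had intervals above 0 and 2 below, against 26.7% and 26.4% of all genes tested. Of the 5 endothelial markers, Cdh5 and Kdr had at most 1 count in a library, and the summed level of the list was 1.06 and 1.22 CPM. The others were Pecam1 with 26 and 25 counts, Tek with 23 and 19, and Vwf with 12 and 30. The part of the cell makeup in the ratios of the members was not tested.

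The scale of the comparison bears on how many members count as higher. When the libraries were scaled so that the median of the fibroblast and preadipocyte markers was 0, a choice made after the data were seen, every log2 ratio moved down by the same amount, and the median of all genes tested became -0.22. The distance of the members from all genes stays as it was under this shift. On that scale the median of the members was 0.11, and the split of intervals above and below 0 went from 33 and 1 to 21 and 9 of 40. Of all 17356 genes tested, 1362 had intervals above 0 on that scale and 9853 below. Later interval counts with this scaling are to be read against these. Then 3 members, Cmpk2, Rsad2 and Oas1a, were at least 1.5-fold higher, and 1 member, Ifi27, was at least 1.5-fold lower.

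**Figure D1:**
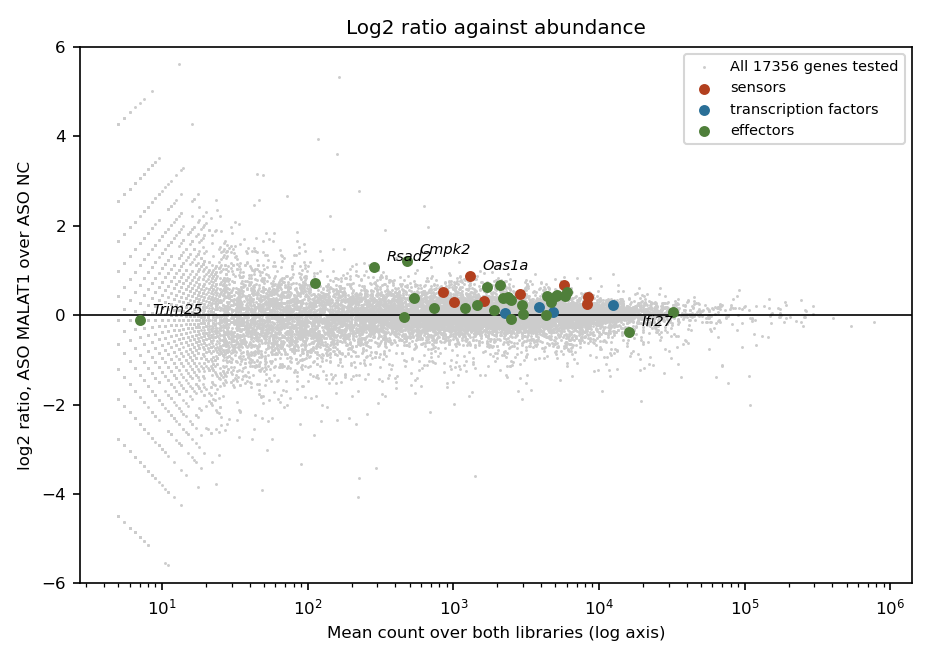
Log2 ratio of MALAT1-knockdown over control cells (y axis) against the mean count of both libraries (x axis, log scale) for all 17356 genes tested in grey and for 40 interferon-stimulated genes in colour by role. Most coloured points sit above the line at 0, Ifi27 sits below it, and Trim25 lies at 7 counts in each library.

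The levels of the members spread widely. Per kilobase of exon, Ifi27, a mitochondrial and membrane protein of the interferon-α-inducible family, had the highest level in control cells, with 207 CPM per kilobase, followed by Lgals3bp with 182, Bst2 with 78.1 and Isg15 with 48.4. Cmpk2, Rsad2 and Igtp, which were among the members with the largest ratios, had low levels of 1.14, 0.692 and 0.694 CPM per kilobase. The median of the 40 members was 8.61 CPM per kilobase in control cells and 11.1 in knockdown cells. In counts, 30 of the 40 members had at least 1000 in each library. Over the 40 members, Spearman's rho between the log2 ratio and the summed CPM was -0.14, a description across genes that share both libraries.

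**Figure D2:**
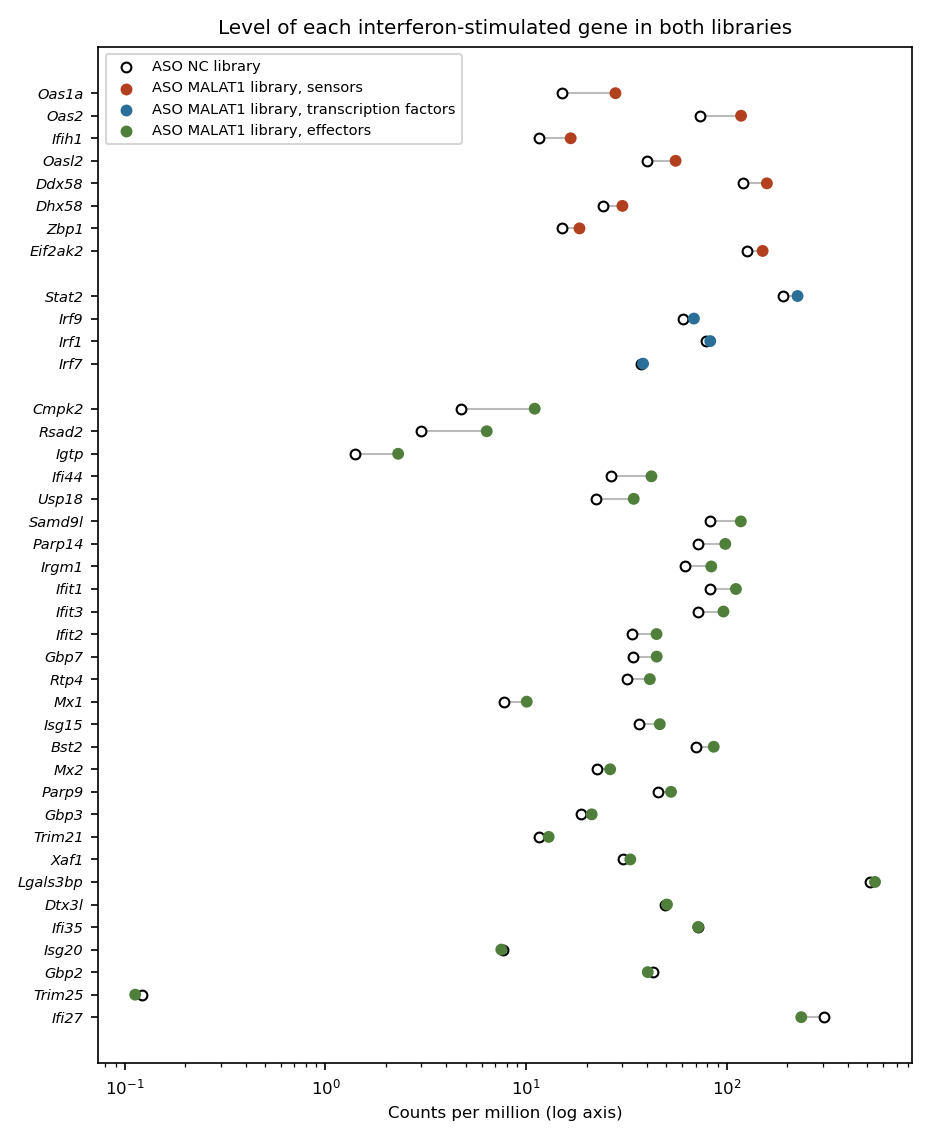
Level of each of the 40 members tested, in CPM on a log axis, with open circles for the control library and filled circles, coloured by role, for the MALAT1-knockdown library. The filled circle lies to the right of the open circle for 35 members, with wide gaps for Cmpk2 and Rsad2 and none to be seen for Ifi35.

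All 8 sensors were higher in MALAT1-knockdown cells, with intervals above 0 for all 8 (against 26.7% of all genes tested) and a median log2 ratio of 0.44. With the scaling to fibroblast markers the median was 0.22, all 8 ratios were still above 0, and 6 intervals were. Over all 17356 genes tested, 1362 intervals were above 0 on that scale. Ddx58 encodes RIG-I, which recognizes RNA with a 5′ triphosphate. Of all sensors tested here it had the second most control counts and the most knockdown counts, 6915 and 9829, and its log2 ratio was 0.40 (95% interval 0.36 to 0.45). Ifih1, which encodes MDA5, the receptor for long double-stranded RNA, had 670 and 1035 counts, a log2 ratio of 0.52 (95% interval 0.38 to 0.66). Dhx58, the related helicase LGP2, had 1389 and 1874 counts and a log2 ratio of 0.33. These 3 helicases differed in level, since Ddx58 had 17.0 CPM per kilobase in control cells against 7.36 for Dhx58 and 1.42 for Ifih1, and all were higher in knockdown cells.

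The OAS enzymes, which make 2′-5′ oligoadenylates on double-stranded RNA and so activate RNase L, held the sensors with the largest ratios. Oas1a (minus strand of chromosome 5, 120896256 to 120907521, coordinates of GRCm38 in GENCODE M21) was counted 872 times in the control and 1730 times in the knockdown library. Its log2 ratio was 0.88, or 1.84-fold (95% interval 1.70 to 2.00 in fold). Reads of Oas1a cannot be told with certainty from those of its near-identical copy Oas1g, which had 230 and 620 counts, and the sum of both had a log2 ratio of 0.99 (95% interval 0.88 to 1.09). Oas2 (minus strand of chromosome 5, 120730333 to 120749853) had 4219 and 7311 counts, a log2 ratio of 0.69 (95% interval 0.63 to 0.74), or 1.61-fold. Oasl2, an OAS-like protein, had 2300 and 3449 counts and a log2 ratio of 0.48. The lowest ratios among the sensors were those of Zbp1, a sensor of nucleic acids in the Z form, with 873 and 1145 counts (log2 ratio 0.28), and of Eif2ak2, the kinase PKR that halts translation, with 7287 and 9360 counts (log2 ratio 0.25, 95% interval 0.21 to 0.30). The intervals of Oas1a and Oas2 lay wholly above those of Zbp1 and Eif2ak2.

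The 4 transcription factors had the lowest median log2 ratio of the 3 roles, 0.12, which turned to -0.10 with the scaling to fibroblast markers. Stat2, the ISGF3 subunit that is specific to type I and type III interferon, had 11028 and 13972 counts, a log2 ratio of 0.23 (95% interval 0.20 to 0.27). Irf9, the DNA-binding subunit of ISGF3, had 3507 and 4255 counts and a log2 ratio of 0.17 (95% interval 0.11 to 0.24). Irf1, an early target of interferon-γ, had 4552 and 5133 counts and a log2 ratio of 0.07 (95% interval 0.01 to 0.12). Irf7, which drives a second wave of interferon-α genes, had 2147 and 2374 counts, and its interval from -0.05 to 0.12 held 0. The intervals of Irf1 and Irf7 overlapped and lay below that of Stat2. In each of the 4 the difference was under 1.5-fold.

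Of the 30 effectors, 28 were tested. Their median log2 ratio was 0.36, 22 had intervals above 0 (against 26.7% of all genes tested), 5 had intervals that held 0 and 1 had an interval below 0. With the scaling to fibroblast markers the median was 0.14. Then 15 intervals lay above 0 and 7 below, against 1362 and 9853 of all 17356 genes. The largest ratios of all 40 members belonged to a pair of neighbours on chromosome 12 that are transcribed away from each other. Cmpk2, a mitochondrial nucleotide kinase (26469204 to 26479837, plus strand), was counted 273 times in the control and 685 times in the knockdown library. Its log2 ratio was 1.22 (95% interval 1.02 to 1.43), or 2.33-fold. Rsad2, which encodes viperin, the enzyme that makes a chain-terminating nucleotide from CTP (26442746 to 26456452, minus strand), had 173 and 395 counts, a log2 ratio of 1.08 (95% interval 0.82 to 1.35), or 2.12-fold. The ratios of both were above those of all other members, although the intervals of Igtp and, for Rsad2, Oas1a overlapped theirs. The promoter entry of Cmpk2 held no match to either motif, and that of Rsad2 held the match printed above.

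Among the other antiviral effectors, Samd9l, a growth-restricting antiviral factor, had 4748 and 7288 counts and a log2 ratio of 0.51 (95% interval 0.46 to 0.56). Rtp4 had 1828 and 2567 counts (log2 ratio 0.38). Bst2, the tetherin that holds budding virions at the cell surface, had 4068 and 5340 counts (log2 ratio 0.29). Of the dynamin-like Mx GTPases, Mx1 had 445 and 625 counts (log2 ratio 0.38) and Mx2 had 1297 and 1628 counts (log2 ratio 0.22). Their intervals overlapped, and the transcripts of Mx1 and Mx2 share a near-identical stretch. The annotation of GENCODE M21 classes Mx2 as a polymorphic pseudogene. Isg20, an RNA exonuclease, had 444 and 467 counts and an interval from -0.22 to 0.16. Of these 8 antiviral members, Cmpk2 and Rsad2 included, 7 had intervals above 0, against 26.7% of all genes tested. With the scaling to fibroblast markers 5 lay above 0 and 1, that of Isg20, below, against 1362 and 9853 of all 17356 genes.

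The IFIT proteins bind RNA that lacks the cap methylation of the host. Their genes lie together on chromosome 19 and had nearly the same ratio. Ifit1 had 4757 and 6890 counts, a log2 ratio of 0.43 (95% interval 0.37 to 0.48). Ifit2 had 1947 and 2771 counts (log2 ratio 0.40) and Ifit3 had 4132 and 5972 counts (log2 ratio 0.42). Ifit3 has a near-identical copy, Ifit3b, and the sum of both gave a log2 ratio of 0.42 as well. The 3 intervals overlapped.

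Isg15, a ubiquitin-like protein that is joined to other proteins, had 2112 and 2877 counts and a log2 ratio of 0.34 (95% interval 0.26 to 0.42). Usp18, the protease that removes Isg15 and also dampens IFNAR2 signalling, had 1288 and 2133 counts, a log2 ratio of 0.62 (95% interval 0.52 to 0.72), or 1.54-fold. Its gene (plus strand of chromosome 6, 121245906 to 121270917) has exons that overlap those of an antisense transcript. The intervals of Isg15 and Usp18 did not overlap.

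The interferon-inducible GTPases act at the membranes around pathogens. Igtp, an IRG GTPase on chromosome 11 (58199556 to 58207591, plus strand), had only 81 and 143 counts, so its log2 ratio of 0.71 had an interval from 0.31 to 1.13. Its exons overlap those of Irgm2, and the sum of both had a log2 ratio of 0.42 (95% interval 0.27 to 0.56). Irgm1 had 3584 and 5193 counts and a log2 ratio of 0.43. Of the guanylate-binding proteins, Gbp7 had 1969 and 2776 counts (log2 ratio 0.39) and Gbp3 had 1088 and 1317 counts (log2 ratio 0.17). Gbp2 had 2459 and 2506 counts, with an interval from -0.16 to 0.00 that held 0. The promoters of all 5 GTPases hold the response element letters, and their log2 ratios ranged from -0.08 for Gbp2 to 0.71 for Igtp.

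Among the ADP-ribosyltransferases and ubiquitin ligases, whose median of 0.16 turned to -0.06 with the scaling to fibroblast markers, Parp14 had 4165 and 6100 counts and a log2 ratio of 0.44 (95% interval 0.39 to 0.50). Its neighbours on chromosome 16 are the partners Parp9 and Dtx3l. Parp9 had 2609 and 3272 counts (log2 ratio 0.22) and Dtx3l, a ubiquitin ligase, had 2847 and 3124 counts (log2 ratio 0.03, interval -0.05 to 0.10). The exons of Parp9 and Dtx3l overlap on opposite strands, and their sum had a log2 ratio of 0.12. Trim21, an antibody receptor in the cytosol with ligase activity, had 670 and 804 counts (log2 ratio 0.16). Trim25, the ligase that activates RIG-I, had 7 counts in each library, and its interval ran from -1.85 to 1.63, so no difference was detectable at this depth.

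The remaining effectors went in different directions, with a median of 0.08 that turned to -0.14 with the scaling to fibroblast markers. Ifi44, a GTP-binding protein on chromosome 3 (151730922 to 151749960, minus strand), had 1531 and 2614 counts, a log2 ratio of 0.67 (95% interval 0.57 to 0.76), or 1.59-fold. Xaf1, a pro-apoptotic protein, had 1759 and 2051 counts (log2 ratio 0.11). Lgals3bp, a secreted glycoprotein and the effector with the most counts, had 29922 and 33984 counts (log2 ratio 0.08, 95% interval 0.05 to 0.10). Ifi35 had 4150 and 4466 counts, and its log2 ratio of 0.00 was below 0 with TMM and with the fibroblast markers and above 0 with library totals, DESeq2's size factors and upper-quartile factors.

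Ifi27 was the exception among the abundant members. Its gene (plus strand of chromosome 12, 103434211 to 103440239) was counted 17553 times in the control and 14584 times in the knockdown library, a log2 ratio of -0.37 (95% interval -0.41 to -0.34). It was the 1 member with an interval below 0. Its neighbour and family member Ifi27l2a, which is not among the 42 genes, had 5614 and 3201 counts, a log2 ratio of -0.92 (95% interval -0.98 to -0.85). The sum of both genes had a log2 ratio of -0.49.

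Psmb8 and Psmb9, the immunoproteasome subunits that replace the constitutive ones, had 0 counts in both libraries, which allows up to 3 counts in each (0.0520 CPM in control cells and 0.0483 CPM in knockdown cells). Apart from Tap2, their nearest neighbours in the major histocompatibility region of chromosome 17 also had few counts. Tap1 had 22 and 40 counts, Tap2 had 321 and 180, and H2-DMa had 22 and 11. Psmb10, the third immunoproteasome subunit, lies outside this region and had 1203 and 1513 counts, a log2 ratio of 0.22. Exons of Psmb8 overlap those of Gm20496 by 498 bases, and exons of Psmb9 overlap those of Tap1 by 212 bases, on opposite strands. How reads in such overlaps were counted is not known, and their part in the counts of 0 was not tested. No fold can be given for Psmb8 and Psmb9.

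**Figure D3:**
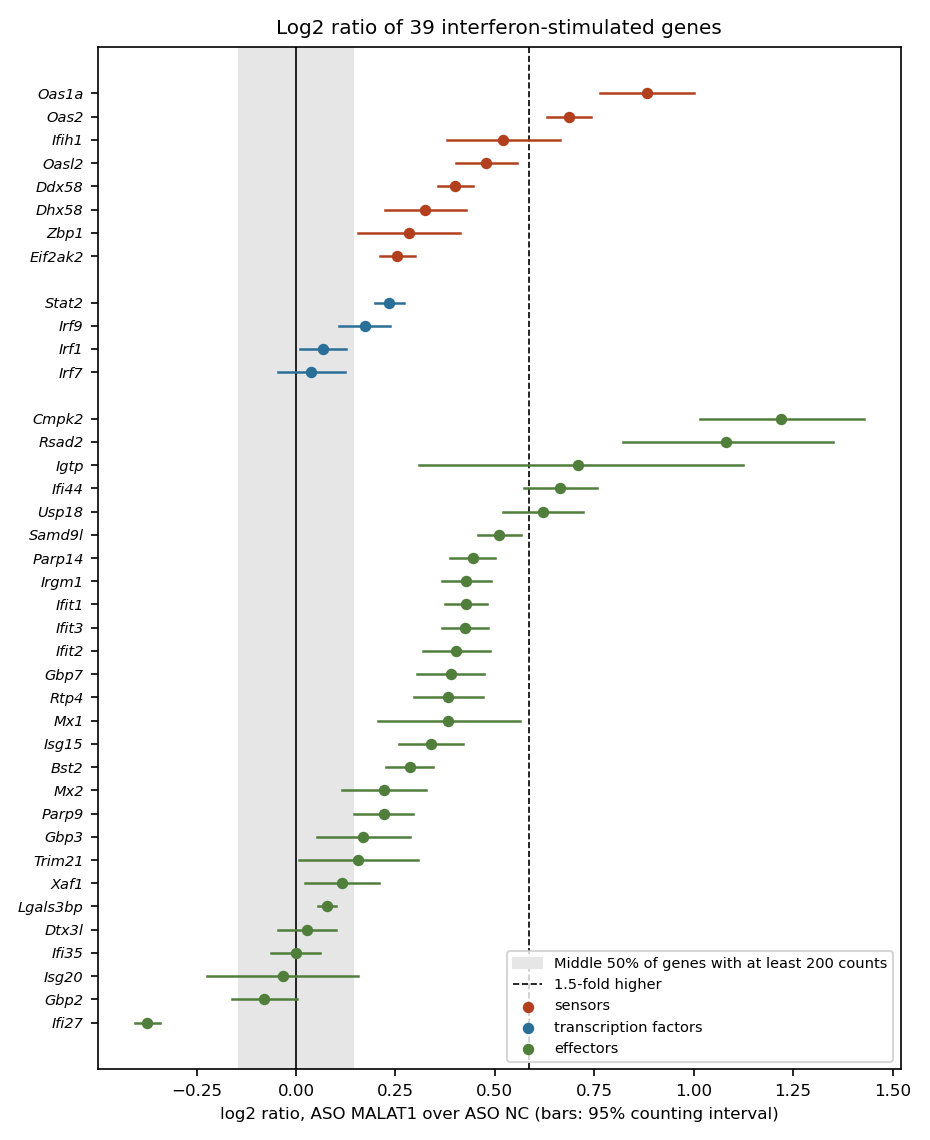
Log2 ratio of MALAT1-knockdown over control cells for 39 members, Trim25 left out, grouped by role, with bars for the 95% counting interval. The grey band is the interquartile range of genes with at least 200 counts (-0.14 to 0.14). All 8 sensors lie to the right of the band in their point values, Irf1 and Irf7 lie inside it, and Ifi27 lies to its left.

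The rest of the interferon pathway was followed in lists written from general knowledge, with earlier results of these data known. Ligands were nearly silent. Of 21 interferon symbols, among them 14 of the Ifna family, Ifnb1 and Ifng, 19 had 0 counts in both libraries. Ifne had 1 count in control cells and 9 in knockdown cells, an interval from 0.21 to 8.52 on the log2 scale, and Ifnz had 0 and 3 counts.

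Receptors were expressed. The 5 tested of 6 had a median log2 ratio of -0.06 with TMM and of -0.28 with the scaling to fibroblast markers. With TMM 1 interval lay above 0 and 2 below, against 26.7% and 26.4% of all genes tested. With the scaling to fibroblast markers 1 lay above 0 and 4 below, against 1362 and 9853 of all 17356 genes. The chains of the type I interferon receptor had small ratios with TMM. Ifnar1 had 8159 and 8340 counts (log2 ratio -0.07, 95% interval -0.12 to -0.03) and Ifnar2 had 3315 and 3430 counts (log2 ratio -0.06, interval -0.13 to 0.01). The chains of the interferon-γ receptor went in opposite directions. Ifngr1, the ligand-binding chain, had 11392 and 7745 counts, a log2 ratio of -0.66 (95% interval -0.71 to -0.62). Ifngr2, the signalling chain, had 3224 and 4342 counts, a log2 ratio of 0.32 (95% interval 0.26 to 0.39). Il10rb, a chain of the interferon-λ receptor, had 1954 and 2230 counts (log2 ratio 0.08, interval 0.00 to 0.17), whereas Ifnlr1, its specific chain, had 0 counts in both.

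Signal transducers were centred near 0, with log2 ratios from -0.18 to 0.33. The 9 kinases, STATs and brakes had a median log2 ratio of 0.01, and 0 were 1.5-fold different. Of their intervals, 3 lay above 0 and 2 below, against 26.7% and 26.4% of all genes tested. With the scaling to fibroblast markers the median became -0.21, close to that of all genes on that scale. Then 0 of the 9 intervals lay above 0 and 7 below, against 1362 and 9853 of all 17356 genes. The log2 ratio was 0.01 for Jak1, with 10536 and 11389 counts, and -0.11 for Tyk2, with 3000 and 3002 counts.

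The sensing pathway had 17 of 19 genes tested, with a median log2 ratio of 0.12 that turned to -0.10 with the scaling to fibroblast markers. Of its intervals, 9 lay above 0 and 2 below, against 26.7% and 26.4% of all genes tested. With the scaling to fibroblast markers this split turned to 3 above and 8 below, against 1362 and 9853 of all 17356 genes. Irf3 had 2385 and 2373 counts (log2 ratio -0.11) and the adaptor Mavs had 3446 and 2923 counts (log2 ratio -0.34, 95% interval -0.42 to -0.27). Tlr3, the endosomal receptor for double-stranded RNA, had 604 and 865 counts (log2 ratio 0.41). Tmem173, which encodes STING, was the 1 gene of this list at least 1.5-fold higher, with 94 and 202 counts and a log2 ratio of 0.99 (95% interval 0.64 to 1.37). Of the 17 tested genes, 12 had log2 ratios above 0, STING among them, and 5 had ratios below 0, Mavs and Irf3 among them.

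A further list of 47 interferon-stimulated genes, of which 44 were tested, had a median above 0, as the members did. Since this list too was chosen with earlier results known, it is no independent check of the members. Its median log2 ratio was 0.26, or 0.04 with the scaling to fibroblast markers. With TMM 33 of 44 intervals lay above 0 and 3 below, against 26.7% and 26.4% of all genes tested. With the scaling to fibroblast markers 17 lay above 0 and 10 below, against 1362 and 9853 of all 17356 genes. At least 1.5-fold higher with TMM were 6 of 44 genes, against 1437 of 17356 (8.28%). At least 1.5-fold lower were 2 of 44, against 2066 of 17356 (11.9%). Those with at least 100 counts that were higher are Oas1g, with the counts given above (log2 ratio 1.32), Slfn2 with 750 and 1458 counts (log2 ratio 0.85), Oas3 with 395 and 686 counts (log2 ratio 0.69) and Trim30a with 3447 and 5622 counts (log2 ratio 0.60). The 2 lower genes are Ifi27l2a, described above, and Ifitm1, with 257 and 183 counts (log2 ratio -0.60).

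**Figure D4:**
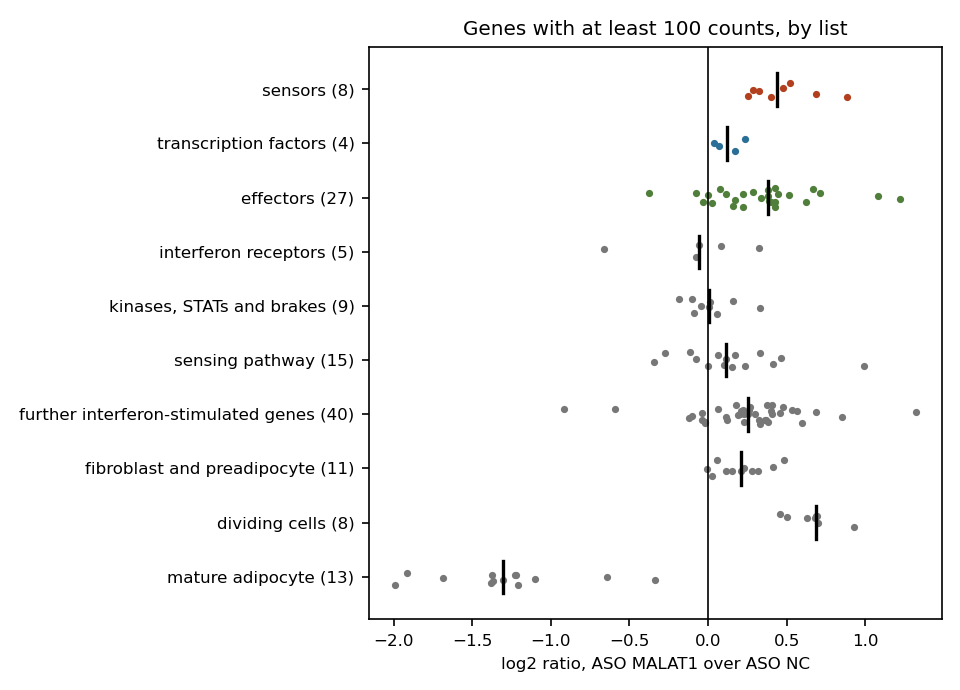
Log2 ratio of MALAT1-knockdown over control cells for genes with at least 100 counts over both libraries, one row for each list, with the number of genes in brackets and a black bar at the median. Sensors (median 0.44) and effectors (0.38) lie to the right of 0, receptors (-0.06) and kinases, STATs and brakes (0.01) lie around it, and mature adipocyte markers (-1.30) lie far to the left.

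Genes around the members were centred on 0. The nearest tested genes on each side of the members, up to 2 a side and outside the lists, were 128 genes with a median log2 ratio of 0.00, and 65 of them were above 0. The ratio of the member was above the median of its own flanking genes for 30 of 40 members. Some flanking genes share a family name with members, such as Ifit1bl1, Ifit1bl2, Oas1c, Oas1f and Gbp2b. For Ifit1, Ifit2 and Ifit3 the flanking median was 0.57, above the ratio of each. Among all tested genes in the promoter table, the 382 with the response element letters had a median log2 ratio of 0.05, and 53.9% were above 0, against 0.00 and 50.4% for the 11120 without it. Without the members and the listed pathway genes, the 351 remaining genes with this motif had a median of 0.03. Within the members, the median was 0.41 for the 12 with the motif and 0.16 for the 18 tested members whose entries lack it. These are descriptions of the listed windows.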

How the data were processed

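Total RNA of 1 library per group was depleted of rRNA and sequenced. The authors deposited whole-number counts of reads per gene symbol, without normalization. HISAT2 and GRCm38 come from the submitters' processing notes. The counting tool, the annotation, and the treatment of strand and of reads that match several places are not given in the sources used here, so counts of overlapping genes and near-identical copies are uncertain. Totals were 58147539 (control) and 61653549 (knockdown).

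Library sizes were scaled by TMM (edgeR 4.0.16, R 4.3.3), with factors of 0.992 and 1.01. Log2 ratios used a prior count of 0.5, and 95% Clopper-Pearson intervals of a gene's share of its counts (scipy 1.17.1, Python 3.11.15) cover counting error only, since reads are not independent molecules. With 1 library per group, edgeR's quasi-likelihood test and DESeq2 could not be run. Genes needed at least 10 counts summed. The calculation of the intervals was checked on simulated counts that held counting error only. This cannot show how the intervals behave with repeated reads or differences between cultures. Gene models and exon overlaps come from GENCODE M21 (GRCm38), promoters from RefSeq GRCm38.p6, and near-identical copies from a BLAST+ 2.17.0 search of transcripts (identity of 95% or more along 200 bases or more).

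Counts are given for every tested member. Genes that are no member are named when they are a receptor, Jak1, Tyk2, Irf3, Mavs, Tlr3 or Malat1, or a pathway gene at least 1.5-fold different with at least 100 counts. Those named in addition (ligands, copies and neighbours of members, Psmb10 and single markers) were chosen after their values were seen. The members and lists were chosen with earlier results of these data known. Alternatives were other scalings (library totals, DESeq2 1.42.0 size factors, upper-quartile factors), filters, prior counts, folds and counts divided by 4.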

Additional observations from a re-analysis of the deposited data

How the results depend on the processing

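No paired analysis was possible because each group has 1 library, and no replicate could be left out. The alternatives of upper-quartile factors, DESeq2's size factors, scaling by library totals, no filter beyond 1 count, at least 10 counts in each library, at least 200 counts summed and a prior count of 2 kept the median log2 ratio of the members between 0.33 and 0.35, with 7 members at least 1.5-fold higher and 33 intervals above 0 in each. The scalings among these moved the median of all genes tested from -0.003 to 0.019 at most. With counts divided by 4, as an allowance for reads of one molecule counted more than once, 28 intervals stayed above 0. A bound of 25% in place of 1.5-fold gave 21 members and one of 2-fold gave 2. Chosen after the data were seen, scaling to the fibroblast and preadipocyte markers lowered the median of the members from 0.33 to 0.11, that of the sensors to 0.22 and that of the effectors to 0.14, turned that of the transcription factors to -0.10, and left 3 members at least 1.5-fold higher and 21 intervals above 0. Also chosen then was leaving out 20 members flagged for overlapping exons or near-identical copies. This left 4 of 20 members at least 1.5-fold higher and 17 intervals above 0, since fewer genes were counted, with a median of 0.39. Mx1 was kept, because the search recorded its shared stretch under Mx2 only. Few counts limit what can be said of Trim25 and Igtp, and counts of 0 allow no fold for Psmb8 and Psmb9. The exons of Psmb8 and Psmb9 also overlap those of other genes, and the part of this in the counts of 0 was not tested.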
